A study of Caenorhabditis elegans with 6 samples.

Results

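The 10 genes described here make, transport and regulate the yolk of Caenorhabditis elegans, and they were taken by symbol from 46904 gene IDs in each library. They are the 6 vitellogenin genes vit-1, vit-2, vit-3, vit-4, vit-5 and vit-6, the yolk receptor gene rme-2, and the regulators ceh-60, unc-62 and pqm-1. All 10 were matched to a WormBase ID and all 10 passed the filter on low counts, beside 14200 tested genes in all. The 6 libraries came from whole hermaphrodites of the wild-type strain N2, kept at 25 °C for 72 h from the last larval stage and harvested on day 3 of adulthood. In 3 libraries the plates held 10 mM caffeine, a methylxanthine, and in 3 control libraries they held 0 mM; each library pooled about 300 animals. All animals were fed the same bacteria, and the groups shared every other condition that the labels give. The stated interest of the study was how caffeine acts on lifespan and on lipid breakdown in lysosomes.

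Vitellogenins are large lipid-binding proteins related to the apolipoproteins of other animals. In the adult hermaphrodite the intestine makes them and secretes them into the body cavity, and growing oocytes take them up through RME-2, a receptor of the LDL receptor family. CEH-60, a homeodomain protein of the PBC class, and UNC-62, a homeodomain protein of the Meis class, act together in the intestine to activate vitellogenin transcription. PQM-1 is a zinc finger transcription factor of the intestine that has been linked to vitellogenin transcription and to insulin signalling. vit-1 to vit-5 encode similar proteins, and vit-6 encodes a more distant precursor that is cleaved into smaller polypeptides.

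The libraries were close in depth, at 40417780 to 40746556 counts. Values below are in CPM, which puts all libraries on 1 total after TMM scaling, unless a percentage of counts or a value per length is named. Markers of intestine, germ line, muscle, hypodermis and neurons were all detected, while 9 tested sperm markers summed to only 5.54 to 11 CPM in caffeine and 7.45 to 24.5 CPM in control libraries. Caffeine library 1 lay nearest to the controls on the first principal component, so results that it decides are given with and without it. The labels gave no batch or date. In libraries of whole animals, fewer cells of a type and less RNA per cell cannot be told apart.

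Caffeine animals had less RNA assigned to vit-3 and vit-4, at 0.225 and 0.281 times the control level, and less pqm-1 RNA, at 0.502 times. No sum of vitellogenin rows passed the test. Of the 10 genes, 3 were called lower and 0 higher at an adjusted p under 0.05, over a background of 24.3% of tested genes called in either direction, 10.5% called lower and 13.8% called higher (edgeR quasi-likelihood test). At an unadjusted p under 0.05 it was 6 lower and 1 higher, where 18.6% of tested genes were lower and 20.3% higher. DESeq2 and limma-voom each called 4 of the 10 lower and 0 higher. DESeq2 called 13.3% of tested genes lower and 14.2% higher, and limma-voom called 10.6% lower and 13.7% higher. The 3 libraries of one group lay wholly apart from those of the other for 7 of the 10 genes, where the same held for 44.3% of tested genes. The median log2 fold change of the 10 genes was -0.41, against -0.0007 over all tested genes. Without caffeine library 1, 7 of the 10 were called lower, with vit-1, vit-6, rme-2 and unc-62 added, while 17.3% of tested genes (2512 of 14547) were called lower.

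**Figure D1:**
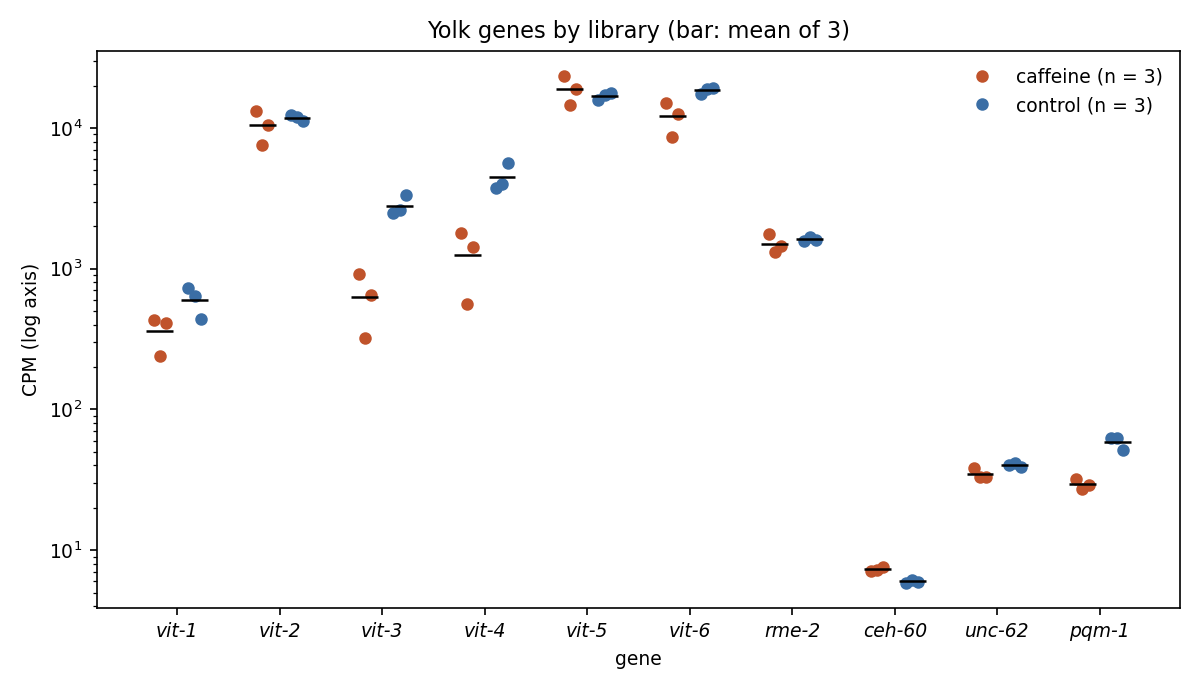
CPM (log axis) of each of the 10 genes in the 3 caffeine libraries (orange, left) and the 3 control libraries (blue, right); black bars are means. The points of the groups lie apart for vit-1, vit-3, vit-4, vit-6, ceh-60, unc-62 and pqm-1 and overlap for vit-2, vit-5 and rme-2.

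vit-3 lies on chromosome X at 3567355 to 3572549 (minus strand, WBcel235), 3.39 kb from vit-4 at 3558769 to 3563965 on the same strand. vit-3 was at 914, 323 and 649 CPM in caffeine libraries 1, 2 and 3, against 2469, 2601 and 3326 CPM in control libraries. Every caffeine library was below every control library, and caffeine library 2 was the lowest. The fold change was 0.225 (95% interval 0.133 to 0.38), the log2 fold change was -2.16 (SE 0.33), and the Benjamini-Hochberg adjusted p was 0.00285 (edgeR quasi-likelihood test).

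vit-4 showed the same order of libraries, at 1786, 563 and 1418 CPM in caffeine libraries, against 3727, 4007 and 5653 CPM in control libraries. Caffeine library 2 was again the lowest and control library 3 the highest. The fold change was 0.281 (95% interval 0.155 to 0.512) and the adjusted p 0.0106 in the same test. Both genes were called lower in each of 15 other analyses, which changed the scaling, the filter or the tool, added a replicate block or left libraries out. The 15 include a fit without caffeine library 1 and control library 2 that was added after seeing the data.

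vit-5, on chromosome X at 3403471 to 3408603 (plus strand), lies 150.16 kb from vit-4 and was the most abundant of this group. It had 23363, 14460 and 19021 CPM in caffeine libraries, against 15910, 17099 and 17675 CPM in control libraries. Caffeine libraries stood on both sides of the controls. The log2 fold change was 0.17 (95% interval -0.25 to 0.58; adjusted p 0.523, edgeR quasi-likelihood test), and it was -0.02 without caffeine library 1.

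The expected counts of these 3 genes held fractions in all 6 libraries, as arise where reads are divided among similar sequences. Their sum is the same however reads were divided among these 3, and division with vit-1, vit-2 or genes outside the family was not tested. vit-3 to vit-5 together had 26060, 15345 and 21087 CPM in caffeine libraries, against 22107, 23709 and 26656 CPM in control libraries. The groups overlapped, with a log2 fold change of -0.21 (95% interval -0.67 to 0.24; adjusted p 0.451, edgeR quasi-likelihood test on the table with the rows summed, where 24.3% of rows were called). vit-3 and vit-4 together held 8.64% ± 2.5 of the summed counts in caffeine libraries and 29.9% ± 3.31 in control libraries (SD, n = 3 each).

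The division within the sum differed between the groups by more than its spread within them. vit-5 took 89.6%, 94.2% and 90.2% of the vit-3 to vit-5 counts in caffeine libraries, against 72.0%, 72.1% and 66.3% in control libraries. vit-4 took 6.85%, 3.67% and 6.72% in caffeine libraries, against 16.9%, 16.9% and 21.2% in control libraries. vit-3 took 3.51%, 2.1% and 3.08% in caffeine libraries, against 11.2%, 11% and 12.5% in control libraries. No caffeine library overlapped a control library for any of the 3 shares. Each gave p = 0.1 in an exact two-sided permutation test, the smallest p that 3 against 3 libraries allow. Exact binomial 95% intervals of these shares reached at most 0.0932 percentage points to either side and cover counting error only. Whether the division of reads among these sequences was itself exact cannot be told from gene-level counts.

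**Figure D2:**
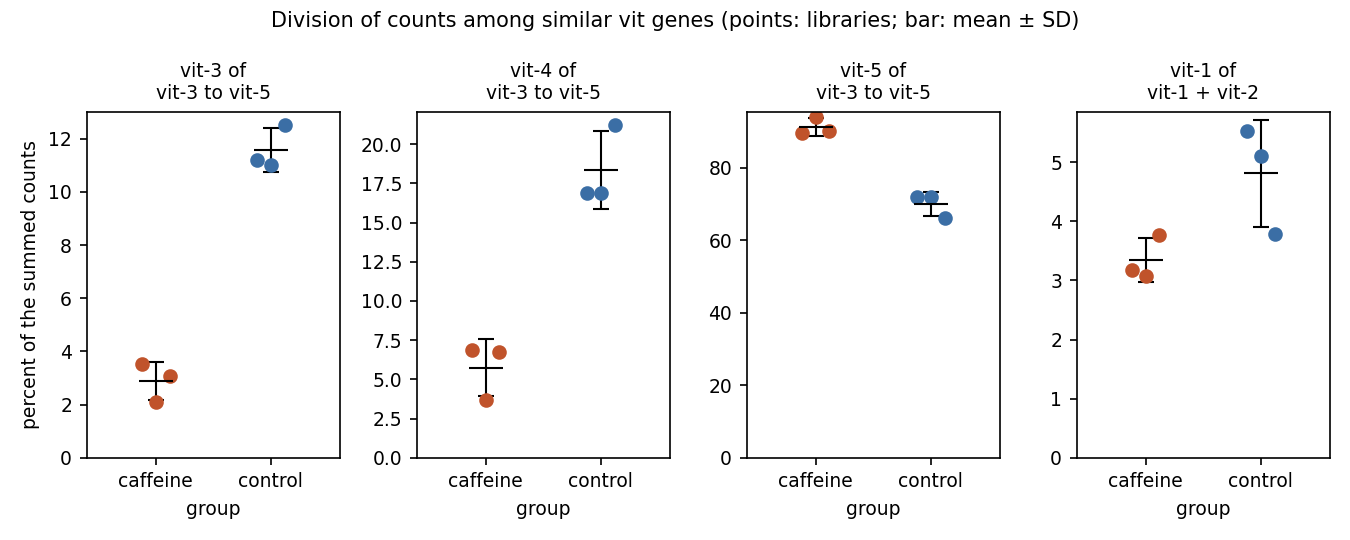
Share of the summed counts of vit-3 to vit-5 taken by each gene, and share of vit-1 with vit-2 taken by vit-1, in percent; points are libraries (caffeine left, control right) and bars are mean ± SD over n = 3. vit-5 held 91.4% of its sum in caffeine and 70.1% in control libraries.

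vit-1 (chromosome X, 7727889 to 7733168, plus strand) and vit-2 (chromosome X, 5101042 to 5106169, plus strand) also had fractional values in all 6 libraries. vit-1 was the least abundant vitellogenin gene, at 433, 239 and 414 CPM in caffeine libraries, against 728, 642 and 440 CPM in control libraries. The highest caffeine library and the lowest control library nearly met. Its log2 fold change of -0.74 (95% interval -1.3 to -0.18) missed the threshold at an adjusted p of 0.0593, which ran from 0.0331 to 0.169 over the 15 other analyses (edgeR quasi-likelihood test where not another tool).

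vit-2 had 13216, 7532 and 10574 CPM in caffeine libraries, against 12441, 11921 and 11160 CPM in control libraries. Its groups overlapped, and the log2 fold change was -0.18 (95% interval -0.62 to 0.26; adjusted p 0.514, edgeR quasi-likelihood test). vit-1 with vit-2 summed to 13648, 7771 and 10987 CPM in caffeine libraries, against 13170, 12564 and 11600 CPM in control libraries. The sum had a log2 fold change of -0.20 (95% interval -0.65 to 0.24) and was not called. vit-1 held 3.34% ± 0.373 of this sum in caffeine and 4.81% ± 0.906 in control libraries (SD, n = 3 each; exact two-sided permutation p = 0.1, the smallest possible). Caffeine library 3 at 3.77% and control library 3 at 3.79% were almost equal.

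vit-6 stands on chromosome IV (8261157 to 8266459, plus strand), and its counts were whole in all 6 libraries. It had 15033, 8616 and 12525 CPM in caffeine libraries, against 17463, 18796 and 19178 CPM in control libraries. All 3 caffeine libraries were below all 3 control libraries. The fold change was 0.653 (95% interval 0.478 to 0.891), with a log2 fold change of -0.62 (SE 0.20). The adjusted p of 0.0528 (edgeR quasi-likelihood test) missed the threshold, and 7 of the 15 other analyses passed it, DESeq2 at 0.00135 and limma-voom at 0.0368 among them. The 7 include the edgeR fit without caffeine library 1 and control library 2 (adjusted p 0.0334), which was added after seeing the data.

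Set against the X-linked genes within each library, vit-6 can be compared without scaling and whatever the division of reads among vit-1 to vit-5. The ratio of vit-6 counts to summed vit-1 to vit-5 counts was 0.379, 0.373 and 0.39 in caffeine libraries, against 0.495, 0.518 and 0.501 in control libraries. The mean was 0.381 ± 0.00906 in caffeine and 0.505 ± 0.012 in control libraries (SD, n = 3 each; exact two-sided permutation p = 0.1, the smallest possible). This ratio was tight even though the level of vit-6 in caffeine libraries had a coefficient of variation of 26.8%. The ratio describes unequal change of vit-6 and the other genes, not which of them changed.

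**Figure D3:**
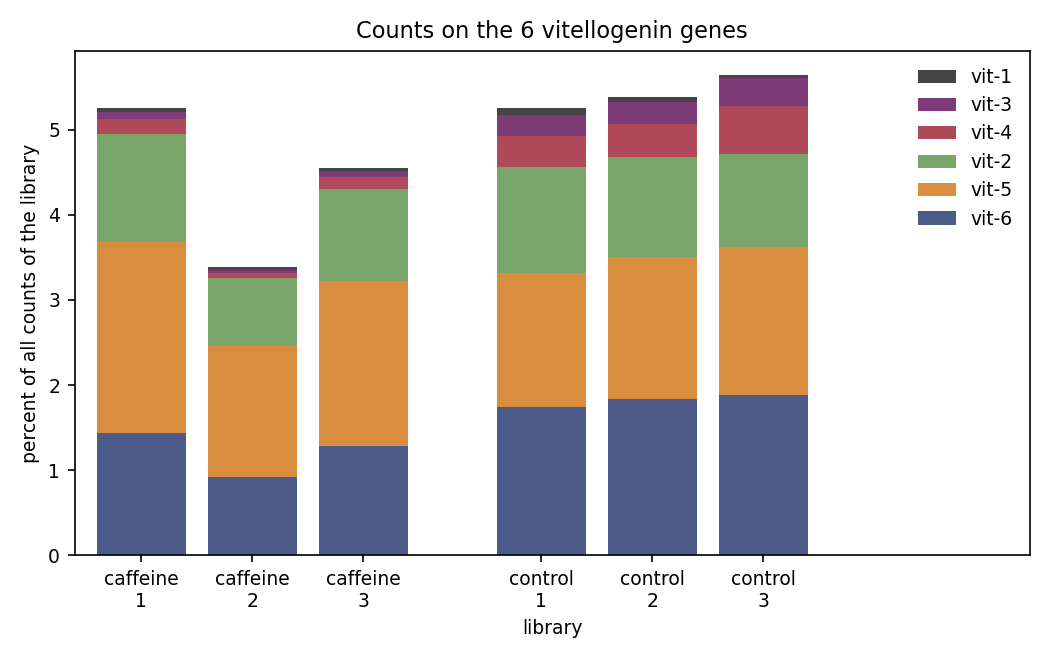
Percent of all counts of a library on each vitellogenin gene, stacked, for caffeine libraries 1 to 3 (left) and control libraries 1 to 3 (right). The total reached 3.38% to 5.25% in caffeine and 5.25% to 5.64% in control libraries, and the bands of vit-3, vit-4 and vit-6 were thinner in every caffeine library.

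All 6 vitellogenin genes together took 5.25%, 3.38% and 4.55% of the counts in caffeine libraries, against 5.25%, 5.38% and 5.64% in control libraries. Caffeine library 1 matched control library 1, and caffeine library 2 was far below the rest. The sum vit-1 to vit-6 had a log2 fold change of -0.33 (95% interval -0.81 to 0.14; adjusted p 0.261, edgeR quasi-likelihood test). Without caffeine library 1 it was -0.53 with an adjusted p of 0.0388. The sum vit-1 to vit-5 had a log2 fold change of -0.21 (adjusted p 0.461). Within the vitellogenin counts, vit-5 made up 43.6% ± 1.68 in caffeine and 30.7% ± 0.452 in control libraries, and vit-6 made up 27.6% ± 0.475 in caffeine and 33.5% ± 0.527 in control libraries (SD, n = 3 each). Both shares separated the groups completely (exact two-sided permutation p = 0.1, the smallest possible).

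Spread among caffeine libraries was wide for the whole family. The coefficient of variation in caffeine libraries was 27.2% for vit-2, 23.5% for vit-5 and 26.8% for vit-6. In control libraries it was 5.44% for vit-2, 5.33% for vit-5 and 4.87% for vit-6. Control libraries also varied widely for vit-1 at 24.5%, vit-3 at 16.5% and vit-4 at 23.3%. In caffeine libraries vit-1 was at 29.5%, vit-3 at 47.1% and vit-4 at 50%. Over 10145 tested genes at a mean of 2 CPM or more the median was 8.53% in caffeine and 4.94% in control libraries. As a share of all counts, vit-1 was highest in library 3 of the caffeine group, at 0.0422% against 0.0415% in library 1. In CPM, library 1 was the highest and library 2 the lowest of that group for all 6 genes. The summed oocyte and eggshell markers had the same order within that group, at 26654, 20574 and 22471 CPM in caffeine and 24073, 26087 and 25122 CPM in control libraries. Their part in the vitellogenin values was not tested.

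**Figure D4:**
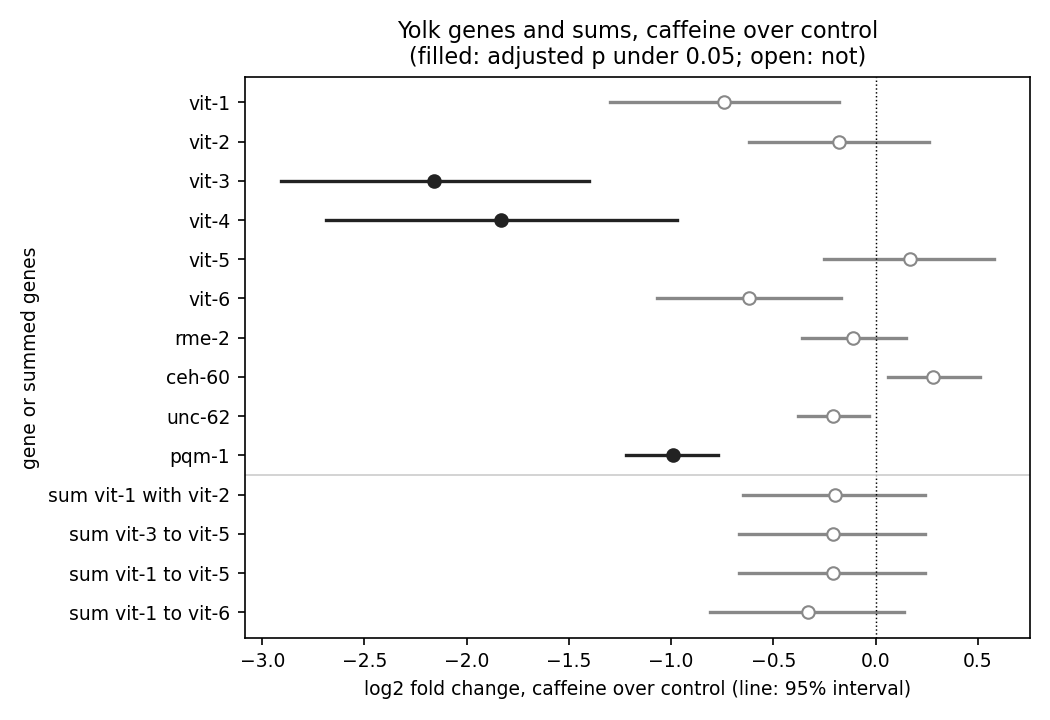
Log2 fold change, caffeine over control, with 95% intervals, for the 10 genes (upper block) and 4 sums of vitellogenin rows (lower block); filled points have an adjusted p under 0.05. vit-3, vit-4 and pqm-1 are filled, while all 4 sums are open and their intervals include 0.

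rme-2, on chromosome IV at 5470026 to 5473174 (plus strand), encodes the receptor through which oocytes take up yolk. It had 1764, 1316 and 1442 CPM in caffeine libraries, against 1580, 1684 and 1607 CPM in control libraries. Caffeine library 1 was above all controls and the other two below them. The log2 fold change was -0.11 (95% interval -0.36 to 0.15; adjusted p 0.507, edgeR quasi-likelihood test), and the 95% interval of the fold change was 0.778 to 1.11. Without caffeine library 1 the log2 fold change was -0.24 and the adjusted p 0.0332. With all 6 libraries, 0 of the 16 oocyte and eggshell markers were called by edgeR, DESeq2 or limma-voom. Of 14200 tested genes these tools called 3450, 3904 and 3443. In edgeR with TMM scaling and the low-count filter, 0 of the 16 had an unadjusted p under 0.05, against 5535 of 14200 genes. Their median log2 fold change was -0.09. At the same unadjusted threshold, edgeR with library totals only had 2 higher and 2 lower, where 5276 of 14200 genes passed. Without a filter 1 was lower. DESeq2 had 1 higher and 2 lower, and limma-voom 1 lower, where 5296 and 5587 genes passed. Without caffeine library 1, edgeR called 6 of the 16 lower, the eggshell gene cpg-1 among them, and 17.3% of all tested genes.

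Of the activators, ceh-60 (chromosome X, 6522596 to 6530146, minus strand) was scarce, with 274, 313 and 314 counts in caffeine libraries, against 238, 243 and 239 counts in control libraries. On the CPM scale it was at 7.06, 7.22 and 7.62 in caffeine and 5.89, 6.12 and 5.97 in control libraries. Every caffeine library was above every control library by a small margin. The fold change was 1.22 (95% interval 1.04 to 1.42) and the adjusted p 0.0675 (edgeR quasi-likelihood test), and no other analysis called it. Its exons share 72 bp, 5.41% of their length, with ets-4 on the other strand. ets-4 had 17.3, 23.3 and 26.6 CPM in caffeine and 22.7, 21.3 and 21.7 CPM in control libraries, and the strand setting of the counting is not given in the sources used here.

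unc-62 (chromosome V, 4497461 to 4511449, plus strand) has 18 annotated transcripts, which the gene-level counts combine. It had 38.2, 33.3 and 33.1 CPM in caffeine libraries, against 40.1, 41.8 and 38.7 CPM in control libraries. The caffeine libraries were below the controls, library 1 only just. The fold change was 0.867 (95% interval 0.767 to 0.979) and the adjusted p 0.0837 (edgeR quasi-likelihood test), which became 0.0166 without caffeine library 1. ceh-60 and unc-62, whose proteins act as partners, thus had fold changes on opposite sides of 1, neither past the threshold.

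pqm-1 (chromosome II, 11150391 to 11152595, minus strand) was the member with the smallest adjusted p. It had 32.1, 27.2 and 29.2 CPM in caffeine libraries, against 62.5, 62.4 and 51.3 CPM in control libraries. The groups were far apart compared with their spread, at 29.5 ± 2.49 CPM in caffeine and 58.7 ± 6.41 CPM in control libraries (SD, n = 3 each). The fold change was 0.502 (95% interval 0.43 to 0.587) and the adjusted p 0.000337 (edgeR quasi-likelihood test). All 15 other analyses called it lower, with log2 fold changes between -1.09 and -0.94.

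Per length, the members ranged from among the most abundant transcripts to scarce ones. TPM values, counts per exon length scaled to a common total, were computed here from annotated exon lengths without the TMM factors. vit-5 led with 5619 ± 1104 TPM in caffeine, against 5033 ± 243 TPM in control libraries, where vit-6 led. vit-6 had 3436 ± 798 TPM in caffeine and 5294 ± 222 TPM in control libraries, and vit-2 had 3053 ± 717 TPM in caffeine and 3483 ± 211 TPM in control libraries (SD, n = 3 each). These 3 genes were among the 22 most abundant genes of every caffeine library and among the 9 most abundant of every control library. Compared within libraries, vit-6 was above vit-5 in each control library and above vit-2 in each caffeine library. The ranges of these values over the libraries of a group overlapped.

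Below them the order differed between the groups. In caffeine libraries rme-2, at 761 ± 85.7 TPM, lay above vit-4 at 365 ± 173 and vit-3 at 183 ± 80.2 TPM. In control libraries rme-2, at 821 ± 12.6 TPM, lay below vit-4 at 1312 ± 311 and overlapped vit-3 at 825 ± 139 TPM. vit-1 came next in control libraries at 172 ± 42.8 TPM, against 103 ± 27.5 TPM in caffeine libraries. There its range overlapped that of vit-3, though vit-1 was below vit-3 in each caffeine library. The regulators were far lower, with pqm-1 at 39.4 ± 1.73 TPM in caffeine and 78.4 ± 8.37 TPM in control libraries. unc-62 was at 7.97 ± 0.386 TPM in caffeine and 9.2 ± 0.257 TPM in control libraries, and ceh-60 at 7.98 ± 0.512 TPM in caffeine and 6.53 ± 0.0114 TPM in control libraries (SD, n = 3 each).

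Other genes that act on vitellogenin transcription had fold changes under 2. Of 13 listed and tested, 3 were called lower and 1 higher, where 10.5% of tested genes were called lower and 13.8% higher. The median log2 fold change of the 13 was -0.28. elt-2, a GATA factor of the intestine, was at 7.47 ± 0.583 CPM in caffeine and 12.1 ± 2.79 CPM in control libraries (log2 fold change -0.69, adjusted p 0.0206). rict-1, which encodes the Rictor subunit of a TOR complex, was at 196 ± 24.2 CPM in caffeine and 263 ± 1.67 CPM in control libraries (log2 fold change -0.43, adjusted p 0.00927). daf-2, the insulin receptor gene, had a log2 fold change of -0.33, and lin-14, a gene of developmental timing, rose to 7.49 ± 0.558 CPM in caffeine, against 5.19 ± 0.398 CPM in control libraries (SD, n = 3 each; log2 fold change 0.53). Adjusted p in the edgeR quasi-likelihood test was 0.0196 for daf-2 and 0.0134 for lin-14. sgk-1 and sma-3 were just above the threshold, at 0.0548 and 0.0502. DESeq2 called both lower. elt-2 lost its call without caffeine library 2 or control library 2, lin-14 without control library 2, and daf-2 without any one library other than caffeine library 1. Of the 5 PBC and Meis class genes 0 were called by edgeR, DESeq2 or limma-voom, although ceh-60 and unc-62 had an unadjusted p under 0.05. Besides unc-62 without caffeine library 1, ceh-20 was called lower without caffeine library 2. psa-3 was furthest from 0, at a log2 fold change of 0.61 on 22 to 59 counts a library.

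Genes for loading and uptake of yolk gave small values. dsc-4, the large subunit of the microsomal triglyceride transfer protein that loads lipid onto lipoproteins, was at 35.2 ± 3.69 CPM in caffeine and 27.3 ± 5.63 CPM in control libraries (SD, n = 3 each; log2 fold change 0.36, adjusted p 0.112, edgeR quasi-likelihood test). lrp-1, a large LDL receptor relative known from the epidermis, was called higher at 61.2 ± 1.51 CPM in caffeine, against 43.7 ± 5.73 CPM in control libraries (adjusted p 0.00709). lrp-2 had a log2 fold change of 0.25 and was not called, except without caffeine library 3, where it was called higher. All 16 genes of the endocytic machinery had log2 fold changes below 0, from -0.39 to -0.03 with a median of -0.13, except that 2 of them were above 0 when libraries were scaled by totals only and 1 in each of 4 fits with a library left out. With all 6 libraries and TMM scaling edgeR called 1 of them, chc-1, the clathrin heavy chain gene, at 512 ± 57.3 CPM in caffeine and 672 ± 21.2 CPM in control libraries (adjusted p 0.0147), and it missed the threshold without caffeine library 3 at 0.0559. limma-voom called 1 of the 16 lower, edgeR with library totals only 2, DESeq2 4, and edgeR without caffeine library 1 called 7. Of all tested genes, limma-voom called 10.6% lower, DESeq2 13.3% and edgeR without caffeine library 1 17.3%. With library totals only, edgeR called 1267 of 14200 lower. The sum of these 16 genes was 2484 to 2876 CPM in caffeine and 3025 to 3081 CPM in control libraries.

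Intestinal markers, from the tissue that makes vitellogenin, did not move as a block. Of 12 tested, 2 were called higher and 6 lower, where 13.8% of tested genes were called higher and 10.5% lower. Only the 2 called higher, vha-6 and asp-1, had log2 fold changes above 0, and the median of the 12 was -0.25. The sum of the 12 was 1939 to 2119 CPM in caffeine and 1782 to 2010 CPM in control libraries. asp-1 weighed most in this sum, with 47641 to 50031 counts in caffeine and 33694 to 42755 in control libraries. It lost its call in several fits with a library left out. act-5, an actin of the intestinal brush border, was at 106 ± 12.7 CPM in caffeine and 232 ± 17 CPM in control libraries (log2 fold change -1.12, adjusted p 0.00015). pept-1, a peptide transporter, was at 22.0 ± 4.75 CPM in caffeine and 48.7 ± 4.69 CPM in control libraries, while vha-6, a proton pump subunit of the intestine, was at 276 ± 28.9 CPM in caffeine and 147 ± 15.3 CPM in control libraries (SD, n = 3 each). erm-1, which organises the brush border, had a log2 fold change of -0.34 (adjusted p 0.00453, edgeR quasi-likelihood test). None of the 12 markers was at 0 in any group, and their part in the vitellogenin values was not tested.

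The genes with the most similar profiles were found by the mean absolute difference between 6 centred log2 CPM values, over 9811 genes that averaged 100 counts or more. For the sum vit-1 to vit-6 these were ceh-21 at 0.058, C17E7.4 at 0.059 and T07D3.9 at 0.063. For rme-2 they were pbs-2 at 0.01, cct-7 at 0.014 and rsa-2 at 0.019. For pqm-1 they were D1054.5 at 0.063, rips-1 at 0.074 and nfm-1 at 0.081. nfm-1 had 21.1, 20.4 and 19.9 CPM in caffeine and 41.7, 38.7 and 37.9 CPM in control libraries. With 6 libraries these lists describe the profiles only.

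**Figure D5:**
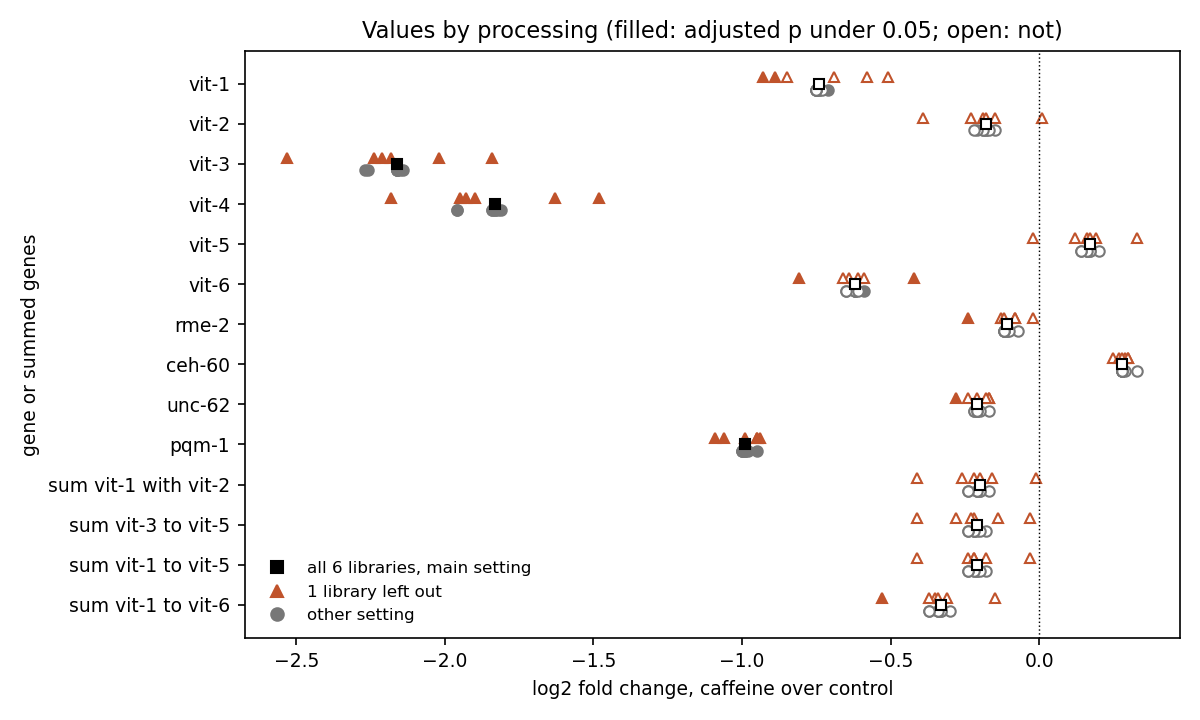
Log2 fold change, caffeine over control, of the 10 genes and 4 sums with all libraries (black squares), with 1 library left out (orange triangles) and with other settings (grey circles); filled symbols have an adjusted p under 0.05. vit-3, vit-4 and pqm-1 are filled throughout, while vit-1 and vit-6 change between open and filled. rme-2, unc-62 and the sum vit-1 to vit-6 are filled only without caffeine library 1.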

How the data were processed

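Whole animals were harvested, and stranded libraries of polyadenylated RNA were sequenced paired-end, per the labels' protocols. The authors deposited 1 file of expected counts per library, per the file headers; these estimated counts divide reads that fit several genes. STAR 2.7.0e, RSEM 1.3.1 and the builds WBcel235 and ce11 are named in the submitters' processing notes, without role or order. Coordinates came from Ensembl release 115 (WBcel235) by gene ID. Groups came from sample titles, and the labels call the samples biological replicates.

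Expected counts were rounded (sums first summed), filtered with filterByExpr of edgeR 4.0.16 (minimum count 10, minimum total 15), scaled with TMM factors (0.96 to 1.067) and tested with its quasi-likelihood test in R 4.3.3, with all 6 libraries, no covariate and Benjamini-Hochberg adjustment over all rows. Calls used an adjusted p under 0.05. Intervals are 95% intervals from the same fit. Shares were compared by exact permutation (scipy 1.17.1). The script was tested on simulated data. DESeq2 1.42.0, limma-voom (limma 3.58.1), other scaling and filters, a replicate block and left-out libraries were alternatives. From each list, called genes (at most 4, by adjusted p) and the gene with the largest absolute change could be named; all 10 genes were named, and 3 genes of most similar profile for each of vit-1 to vit-6 summed, rme-2 and pqm-1. Genes named outside this rule (asp-1, sgk-1, sma-3, ceh-20, lrp-2, spe-11, ets-4) were chosen after their values were seen. The members and lists were chosen with earlier results of these data known.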

Additional observations from a re-analysis of the deposited data

How the results depend on the processing

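Of 150 values of the 10 genes under 15 alternatives, 134 kept direction and side of the threshold. With 1 library left out, vit-2 ran from -0.39 to 0.01 (above 0 without caffeine library 2), vit-5 from -0.02 (without caffeine library 1) to 0.33, and ets-4 from -0.11 (without caffeine library 3) to 0.18. vit-5 was also at -0.0031 without caffeine library 1 and control library 2, an alternative added after seeing the data. None of these was called. The lower-called members numbered 5 with library totals only and 5 without a filter (vit-1 and vit-6 added), 4 with DESeq2, and 3 to 7 with 1 library left out. Lower calls among all tested genes were 1267 of 14200 with library totals only, 1437 of 20717 without a filter and 1882 of 14200 with DESeq2. Of the members, 0 were called higher in any setting, edgeR, DESeq2 and limma-voom included. The sum vit-1 to vit-6 ran from -0.53 to -0.15 with 1 library left out, called without caffeine library 1 only. Over all genes, 1209 to 2264 were then higher and 698 to 2512 lower; each library moved the lower count by over 1.5 times and control library 2 the higher count. Share and split differences kept their sign throughout; their p cannot fall below 0.1. The causes were not tested. Of 416 values of 28 other named genes, 361 kept direction and side.

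The replicate numbers of the titles were not taken as pairs. Deviations of equal numbers correlated at -0.183, -0.155 and 0.249 over genes, and not every library correlated best with its own number. With 3 libraries a group these values cannot show whether equal numbers were handled together, and the labels do not say. A replicate block gave 1496 genes higher and 1074 lower, with vit-3 at -2.27, vit-4 at -1.96 and pqm-1 at -0.99, all still called, 3 members lower, and the sum vit-1 to vit-6 at -0.37.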

Other observations

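Of the lists for tissues outside the yolk pathway, muscle had 4 of 5 markers called, hypodermis 1 of 5 and coelomocytes 1 of 3, where 24.3% of all tested genes were called. All 5 muscle markers had log2 fold changes above 0 under each scaling, and 4 were called higher by the edgeR quasi-likelihood test: myo-2 and myo-1, myosins of the pharynx, at log2 fold changes of 1.31 and 0.92, and unc-54 and myo-3, myosins of the body wall, at 0.70 and 0.42. myo-3 lost its call without control library 2 (adjusted p 0.0622) and without control library 3 (0.0584). The summed level of all 5 muscle markers was 359 to 494 CPM in caffeine and 263 to 292 CPM in control libraries. col-19, an adult cuticle collagen of the hypodermis, rose to 93.1 ± 2.85 CPM in caffeine, against 42.9 ± 13 CPM in control libraries (SD, n = 3 each; adjusted p 0.00529), as the only one of 5 hypodermis markers called. The largest change among them, 1.81 for rol-6, rested on 0 to 47 counts a library and was not called; without control library 1 it was 4.59 and was called (adjusted p 0.0371). cup-4, expressed in coelomocytes, scavenger cells that take up fluid from the body cavity, was at 11.5 ± 0.744 CPM in caffeine and 8.1 ± 0.379 CPM in control libraries (adjusted p 0.00798), as the only one of 3 coelomocyte markers called.

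Embryo and gonad markers gave weaker results. With all 6 libraries edgeR called 24.3% of all tested genes, 10.5% lower and 13.8% higher. tbx-37 and tbx-38, T-box genes of the early embryo, were called lower. tbx-37 was at 1.11 ± 0.313 CPM in caffeine and 2.03 ± 0.378 CPM in control libraries (adjusted p 0.0468), and tbx-38 at 1.26 ± 0.267 CPM in caffeine and 2.3 ± 0.604 CPM in control libraries (SD, n = 3 each; adjusted p 0.0455, edgeR quasi-likelihood test). They were the called genes among 8 tested embryo markers, and end-1 had a log2 fold change of 1.09 on 2 to 22 counts and was not called. ceh-18 of the gonad sheath had 0.43 (adjusted p 0.0354), and lim-7 had 0.45 and was not called, except without caffeine library 1 (0.54, adjusted p 0.0354); it was 0.29 without caffeine library 2. Among 6 neuron markers unc-25 alone was called, at 0.46 (adjusted p 0.0294). gsp-4, a sperm phosphatase gene, was the called one of 9 tested sperm markers at -2.59 (adjusted p 0.0498) and had -1.4 (adjusted p 0.176) without control library 2; it also lost its call without caffeine library 2, caffeine library 3 or control library 1. limma-voom called 0 of the 9, and of all tested genes 10.6% lower and 13.7% higher. Without caffeine library 1 edgeR called 5 of 10 tested sperm markers lower, and 17.3% of all tested genes. These 5 had 76 to 154 counts in control library 2, against 4 to 32 in control libraries 1 and 3. Without control library 2 edgeR called 1 of 9 sperm markers, spe-11, which was higher. In that fit 1209 of 14497 tested genes were called higher. cpg-1, the eggshell gene furthest from 0 among 16, had -0.26 and was not called; without caffeine library 1 it was -0.48 and was called (adjusted p 0.0128). tbx-37, tbx-38, ceh-18 and unc-25 each lost their call in several fits with a library left out.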
